A study of Mus musculus with 12 samples.

Results

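Heme and iron handling was followed through 10 genes in perivascular macrophages of the mouse brain, which reside around its blood vessels. The genes were chosen by name for their place in heme breakdown (Hmox1, Blvra, Blvrb), iron storage in ferritin (Fth1, Ftl1), iron export (Slc40a1), transport across phagosome and lysosome membranes (Slc11a1, Slc48a1) and iron import (Tfrc, Slc11a2). All 10 were among the 17358 genes of the deposited table, and all 10 passed the filter on low counts that left 9550 genes for testing. RNA was read from 5 libraries of aged mice (18 months) and 7 libraries of young adult mice (3 months) of a C57BL strain, with no other treatment named. Each library was made with SMART-seq2, which amplifies whole transcripts from little starting RNA, and is called a biological replicate. The sources used here do not give the number of animals or cells behind a library, the sex of the mice or the marker used to isolate the cells.

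Macrophages take up heme from haemoglobin and from dying cells and break it open with heme oxygenase, which releases iron, carbon monoxide and biliverdin. Biliverdin reductases then turn biliverdin into bilirubin, and the iron is stored in ferritin or leaves the cell through ferroportin. Cells sense iron through iron regulatory proteins, which bind a short hairpin, the iron-responsive element, in certain messenger RNAs. Bound in a 5′ untranslated region the hairpin holds back translation, and bound in the 3′ untranslated region of the transferrin receptor message it protects the RNA from decay. Levels of messenger RNA therefore follow iron more directly for the receptor than for ferritin.

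The hairpins of these genes are shown because they divide the 10 genes by their known mode of control. The pattern searched was C, 5 bases, the loop CAGTGN and 5 bases, with at least 4 of the 5 base pairs of the upper stem in place (G and T counted as a pair), on the sense strand of protein-coding transcripts of GENCODE M21 (GRCm38). It was present in 0.981% of the 20899 genes with an annotated 5′ untranslated region and in 4.15% of the 21028 genes with a 3′ one, so a match alone describes letters and not a working site. Of the 10 genes, 3 held it in the 5′ and 2 in the 3′ untranslated region. Each sequence below has 30 bases with the loop in capitals.
Fth1, 5′ untranslated region, chr19:9982732-9982761, plus strand: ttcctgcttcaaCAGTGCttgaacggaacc
Ftl1, 5′ untranslated region, chr7:45459778-45459807, minus strand: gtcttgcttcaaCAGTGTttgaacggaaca
Slc40a1, 5′ untranslated region, chr1:45925464-45925493, minus strand: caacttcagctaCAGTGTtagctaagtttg
Slc11a2, 3′ untranslated region, chr15:100395152-100395181, minus strand: agccatcagagcCAGTGTgtttctatggtt
Tfrc, 3′ untranslated region, chr16:32631219-32631248, plus strand: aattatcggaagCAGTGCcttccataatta
Tfrc held 4 such sites, all between 32631219 and 32631739 of chromosome 16, and the first of them is printed. The ferritin sites of Fth1 and Ftl1 pair at all 5 positions of the upper stem, and that of Slc11a2 at 4 of 5.

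Library totals ranged from 23214836 to 30505441 estimated counts in aged and from 25864086 to 30628787 in young libraries, so 3 counts, taken as the limit of detection, corresponded to between 0.094 and 0.15 normalised CPM (CPM after TMM scaling, a correction for library composition). Aged libraries 1, 3 and 4 stood apart from all others on the first principal component. The 8 markers of perivascular macrophages summed to 8906 to 12493 normalised CPM in the aged and 8990 to 15740 in young libraries, and all 8 were tested. The 8 microglia markers were also present, at 3857 to 5908 in aged and 3723 to 7167 in young libraries, whereas the 6 endothelial markers stayed at or below 4.32 in aged and 27.7 in young libraries. The 7 markers of erythroid cells summed to 0 to 63.4 normalised CPM in the aged and 3.91 to 248 in young libraries (medians 16.5 and 16.9). Alas2 was at 4 counts or fewer in every library and Slc4a1 at 6 or fewer in all but young library 3 (34 counts). The haemoglobin genes Hba-a1 and Hba-a2 had 3930 and 1945 counts in young library 7. In aged libraries their highest counts were 532 (library 4) and 1030 (library 1). Both were at 0 in aged library 5 and young libraries 5 and 6. The 6 choroid plexus markers summed to 199.6 to 1110 in aged and 59.4 to 147 in young libraries. Most of this was Ttr alone, at 176 to 1051 in aged and 55.3 to 146 in young libraries. Kcnj13 was at 52.5, 72.9, 39.7 and 39.1 normalised CPM in aged libraries 1 to 4, with 1 count in aged library 5. It had 0 counts in every young library except library 4 (84 counts). Clic6 had 103, 416 and 677 counts in aged libraries 2, 4 and 5 and at most 11 in every other library. Prlr had 344 counts in aged library 2 and at most 48 in every other library. Folr1 had 0 counts in all but aged library 2, and Aqp1 at most 1 count in every library. The sums were not tested between the groups, and the part of these markers in the values below was not tested.

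None of the 10 genes differed between aged and young libraries past the threshold, an adjusted p under 0.05 by edgeR's quasi-likelihood test over all 9550 tested genes. The background was low, with 0.0105% of all tested genes called. DESeq2, limma with voom weights and the bias-adjusted mode of edgeR (legacy=FALSE) also called 0 of the 10, against 1.27% of tested genes called by DESeq2 and 0.398% by edgeR with legacy=FALSE. At an unadjusted p under 0.05 there was 1 of the 10, Blvrb, beside 5.97% of all tested genes. The aged and young ranges overlapped for all 10, while they did not overlap for 0.597% of tested genes. Of the 10 log2 fold changes (aged over young) 3 were positive and 7 negative, with a median of −0.16, beside a median of −0.01 over all tested genes. In bulk libraries a lower level per cell and fewer cells expressing the gene cannot be told apart, and since nothing says that libraries came from separate animals, p-values measure only the spread between these libraries.

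**Figure D1:**
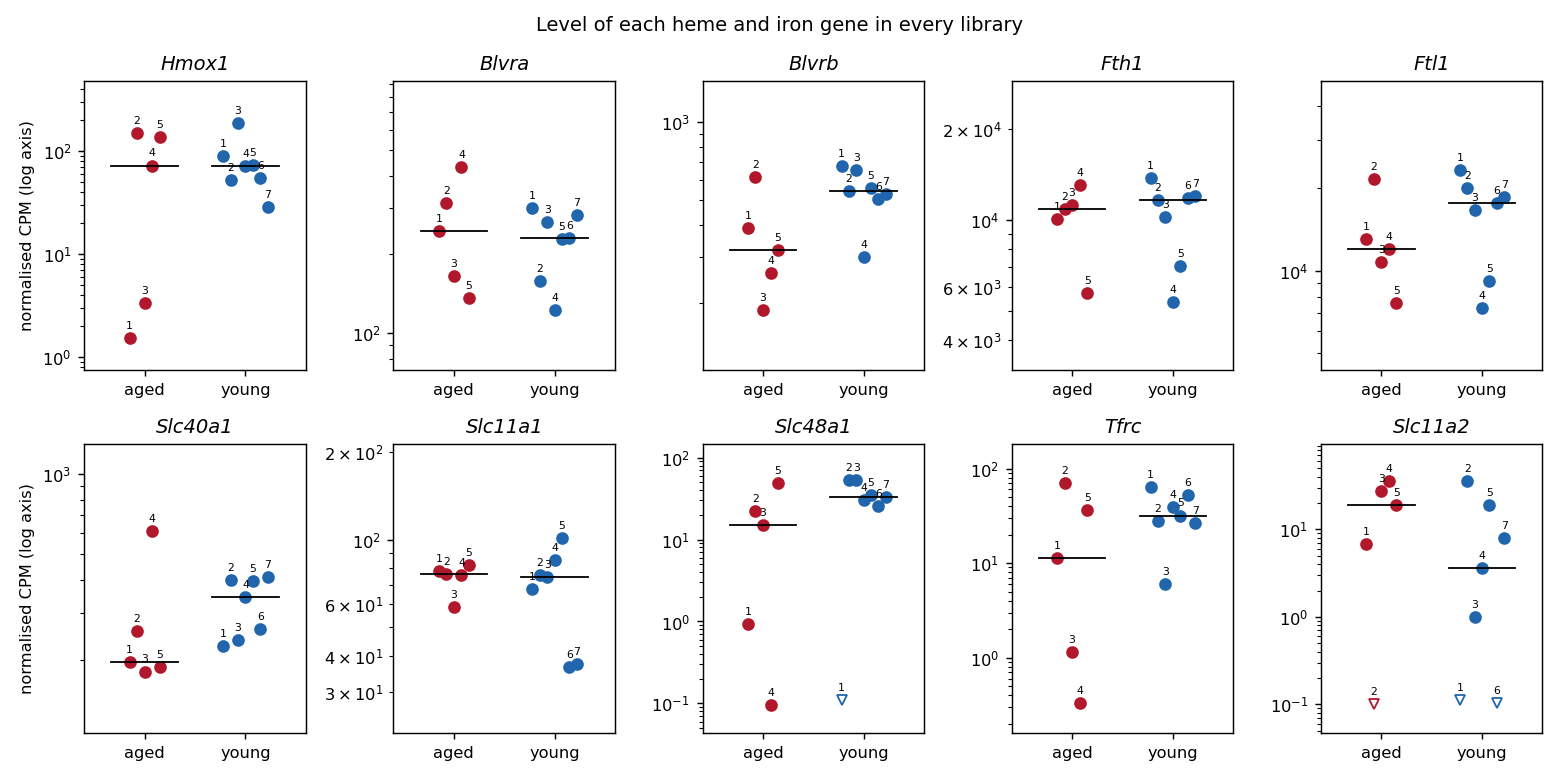
Normalised CPM of the 10 heme and iron genes in each of the 5 aged (left) and 7 young (right) libraries, on log axes, with library numbers above the points and a line at the group median. Open triangles mark libraries with 0 counts, drawn at the level of 3 counts. The aged and young points overlap in every panel, and Hmox1, Slc48a1, Tfrc and Slc11a2 spread over far more than the other 6 genes.

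Hmox1, the inducible heme oxygenase that opens the heme ring (chromosome 8, 75093618 to 75100593), was split within the aged group. It had 1.53, 149.5, 3.35, 72.5 and 137 normalised CPM in aged libraries 1 to 5, against a lowest value of 28.8, a median of 71.1 and a highest value of 188 in young libraries. Aged libraries 1 and 3 lay below every young library, with 38 and 67 counts, whereas every other library held at least 875 counts. The other 3 aged libraries lay within the young range, and the group medians, 72.5 in aged and 71.1 in young libraries, were close. The fitted log2 fold change was −0.13 ± 0.80 (SE, 95% interval −1.83 to 1.57, adjusted p = 0.999 by edgeR), a range that includes a change of more than 2-fold in either direction. It was −1.23 with limma voom, −1.36 and −1.63 with limma on log2(FPKM + 1) and log2(FPKM + 0.1), and −1.31 with a replicate block. Without aged libraries 1, 3 and 4 it was 0.84 with the sign turned, so no direction can be given for Hmox1.

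Blvrb, which reduces flavins and biliverdin (chromosome 7, 27447978 to 27465981), was the gene with the smallest p of the 10. Levels were 388, 612, 187, 261 and 319 normalised CPM in aged libraries 1 to 5, against a lowest value of 299.8, a median of 542 and a highest value of 678 in young libraries. Aged libraries 3 and 4 lay below all young libraries, aged library 2 lay among the higher young ones, and the lowest young value came from library 4. Blvrb averaged 353 ± 162 normalised CPM in the aged and 537 ± 123 in young libraries (SD, n = 5 and 7). Its log2 fold change was −0.61 ± 0.28 (SE, 95% interval −1.19 to −0.02), with an unadjusted p of 0.0441 and an adjusted p of 0.791 by edgeR, and it stayed negative under all 23 alternatives (−0.89 to −0.20, lowest adjusted p 0.158). The smallest difference, −0.20, came from leaving out aged libraries 1, 3 and 4.

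Blvra, the main biliverdin reductase (chromosome 2, 127070629 to 127097084), had 245, 314, 166, 433 and 136 normalised CPM in aged libraries 1 to 5, against a lowest value of 123, a median of 231 and a highest value of 301 in young libraries. The groups overlapped, with aged libraries 2 and 4 above all young ones. The log2 fold change was 0.19 ± 0.31 (SE, 95% interval −0.46 to 0.83, adjusted p = 0.999 by edgeR), and its sign turned without aged library 4 (−0.086).

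The balance of the 2 reductases within a library does not depend on how that library is scaled. Blvrb over Blvra, as a ratio of normalised CPM, was 1.58, 1.94, 1.13, 0.603 and 2.34 in aged libraries 1 to 5, against 1.87 to 3.42 in young libraries. Aged libraries 1, 3 and 4 lay below all 7 young libraries, and aged library 4 was the only library with a ratio below 1. The mean log2 ratio was 0.46 ± 0.77 in aged and 1.26 ± 0.26 in young libraries (SD, n = 5 and 7), a difference of −0.80 (exact two-sided permutation p = 0.0177 over all 792 splits into 5 and 7, adjusted p = 0.0530 over the 3 ratios tested). The difference missed the threshold after adjustment and passed it without aged library 2 (−0.93), aged library 5 (−0.99) or young library 7 (−0.86), with adjusted p of 0.0364, 0.0364 and 0.039 by the same exact test. It did not pass under the other 12 alternatives. Among these it was −0.50 without aged library 4 and −0.17 without aged libraries 1, 3 and 4.

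**Figure D2:**
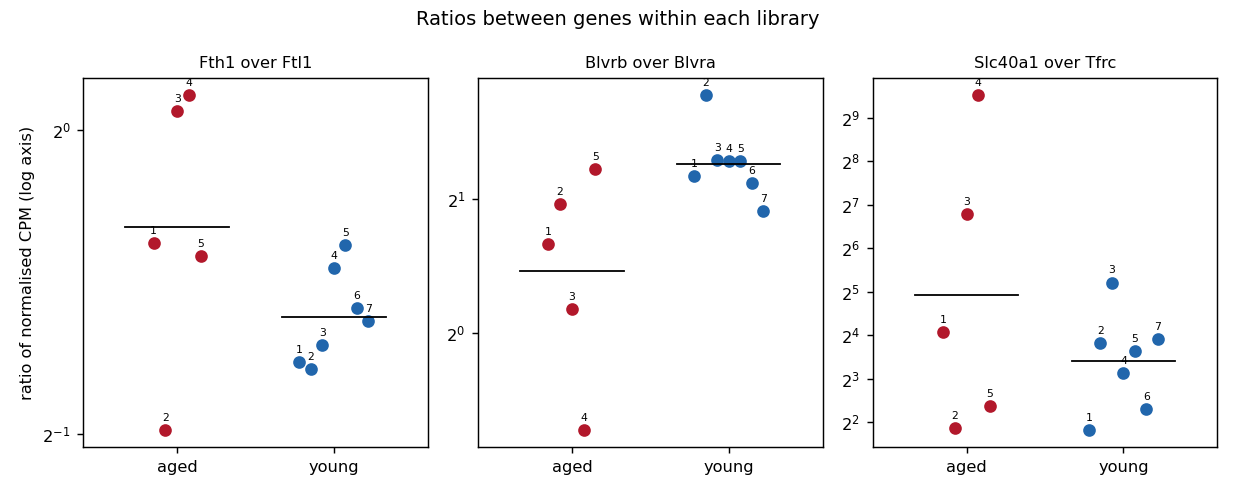
Ratio of normalised CPM between 2 genes in each aged (left) and young (right) library, on log axes with base 2, with library numbers above the points and a line at the geometric mean. Blvrb over Blvra was 0.603 to 2.34 in aged and 1.87 to 3.42 in young libraries, and in all 3 ratios the aged libraries spread more widely than the young ones.

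Ferritin was by far the most abundant product of this set. The heavy chain gene Fth1, whose protein oxidises iron for storage (chromosome 19, 9980600 to 9985111), and the light chain gene Ftl1, whose protein helps form the mineral core (chromosome 7, 45457944 to 45459886), ranked 11 and 6 of 17358 genes by mean FPKM, the deposited level per transcript length. Together they took 1.5% to 3.16% of all counts in aged libraries (median 2.15%) and 1.57% to 3.28% in young libraries (median 2.94%).

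Fth1 was at 10079, 10886, 11184, 13024 and 5713 normalised CPM in aged libraries 1 to 5, against a lowest value of 5333, a median of 11610 and a highest value of 13753 in young libraries. One library of each group, aged library 5 and young library 4, lay apart at the low end, and young library 5 was the next lowest. Fth1 averaged 10177 ± 2718 normalised CPM in the aged and 10245 ± 3004 in young libraries (SD, n = 5 and 7), with a log2 fold change of −0.01 ± 0.25 (SE, adjusted p = 0.999 by edgeR). The 95% interval was −0.53 to 0.51, the narrowest of the 10 genes. It was −0.30 when aged libraries 1, 3 and 4 were left out.

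Ftl1 was at 13064, 21596, 10712, 12036 and 7623 normalised CPM in aged libraries 1 to 5, against a lowest value of 7311, a median of 17676 and a highest value of 23363 in young libraries. Of the aged libraries 4 lay below the young median, and the groups overlapped throughout. The log2 fold change was −0.31 ± 0.29 (SE, 95% interval −0.93 to 0.31, adjusted p = 0.999 by edgeR), and it stayed between −0.57 and −0.13 under all 23 alternatives (−0.13 without aged libraries 1, 3 and 4). Counts of Ftl1 were not whole numbers in any of the 12 libraries, unlike those of the other 9 genes, so its reads were shared with similar sequences and its level is uncertain. A further entry of the table, LOC100862446, carried between 0.363% and 0.510% of the Ftl1 count in every library.

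The heavy to light chain ratio, Fth1 over Ftl1 in normalised CPM, was 0.772, 0.504, 1.04, 1.08 and 0.749 in aged libraries 1 to 5, against 0.580 to 0.768 in young libraries. Aged libraries 1, 3 and 4 lay above all young libraries and aged library 2 below all of them. The mean log2 ratio was −0.32 ± 0.45 in aged and −0.62 ± 0.15 in young libraries (SD, n = 5 and 7, difference 0.29, exact two-sided permutation p = 0.141, adjusted p = 0.212). The sign turned to −0.09 without aged libraries 1, 3 and 4, and the difference was 0.46 with an adjusted p of 0.0364 by the same exact test without aged library 2.

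Fth1 and Ftl1 moved together across libraries. Over all 12 libraries Pearson's r of log2(normalised CPM + 1) was 0.829 (permutation p = 0.00061, adjusted p = 0.00732 over 12 pairs of genes) and Spearman's rho was 0.706 (permutation p = 0.0126, adjusted p = 0.0894). Without the 2 libraries farthest from the median of Fth1, young library 4 and aged library 5, r was 0.613 (permutation p = 0.0464). Within the 7 young libraries r was 0.990 (exact permutation p = 9.9e-04), and the 5 aged libraries were too few for a value of their own. The adjusted p of the pooled r rose to 0.0546 (permutation test) without young library 5. Both genes share each library's depth, scaling and amplification.

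**Figure D3:**
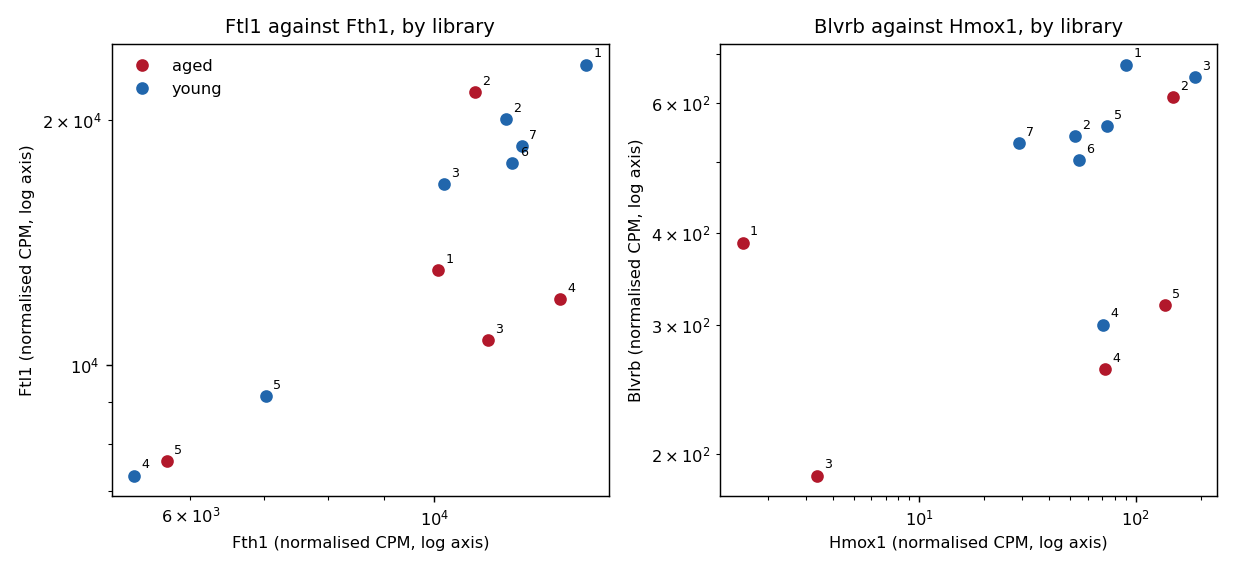
Normalised CPM of Ftl1 against Fth1 (left) and of Blvrb against Hmox1 (right) in each library, on log axes, with aged libraries in red, young libraries in blue and library numbers beside the points. The 7 young libraries lie close to a line for the ferritin chains (r = 0.990), with aged libraries 3 and 4 below it, and aged libraries 1 and 3 stand alone at low Hmox1.

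None of the other 11 pairs examined passed over the 12 libraries. Hmox1 and Blvrb had r = 0.484 (permutation p = 0.102, adjusted p = 0.410) and rho = 0.538 (permutation p = 0.0739), but r was 0.098 without aged libraries 1 and 3, so this relation rested on those libraries. Blvra and Blvrb had r = 0.343 (permutation p = 0.275, adjusted p = 0.732) and rho = 0.371 (permutation p = 0.238), with r = 0.830 within the 7 young libraries (exact permutation p = 0.0198) and r = 0.670 without young library 4 and aged library 4. The import genes Tfrc and Slc11a2 ran in opposite directions, with r = −0.55 (permutation p = 0.0631, adjusted p = 0.379) and rho = −0.70 (permutation p = 0.0149, adjusted p = 0.0894), but r was −0.26 without aged libraries 3 and 4 and −0.14 within the young libraries. Hmox1 had r = 0.114 with Ftl1 and r = −0.19 with Fth1 (permutation p = 0.723 and p = 0.613), and rho = 0.084 and rho = −0.15. Hmox1 and Slc40a1 had r = 0.287 (permutation p = 0.368, adjusted p = 0.732) and rho = −0.056, but r was −0.60 without aged libraries 1 and 3 (permutation p = 0.0668) and −0.67 within the 7 young libraries (exact permutation p = 0.0794). Slc48a1 and Hmox1 had r = 0.313 (permutation p = 0.314, adjusted p = 0.732) and rho = 0.210, with r = 0.814 without young library 1 and aged library 4 (permutation p = 0.0042) and −0.11 within the young libraries.

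Slc40a1 encodes ferroportin, the only known exporter of iron from mammalian cells (chromosome 1, 45908070 to 45926532). It had 197, 257, 181, 612 and 188 normalised CPM in aged libraries 1 to 5, against a lowest value of 225, a median of 346 and a highest value of 411 in young libraries. Aged libraries 1, 3 and 5 lay below all young libraries, and aged library 4 lay above all of them. The averages, 287 ± 184 in aged and 326 ± 82.2 in young libraries (SD, n = 5 and 7), hide this split, and the log2 fold change was −0.18 ± 0.31 (SE, 95% interval −0.85 to 0.48, adjusted p = 0.999 by edgeR). Without aged library 4 it was −0.68 with an adjusted p of 0.651, and without aged libraries 1, 3 and 4 it was −0.55.

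Slc11a1, an exporter of divalent metals from phagosomes and lysosomes (chromosome 1, 74375014 to 74386057), was the steadiest gene of the set in aged libraries. C57BL/6 mice are known for a loss-of-function allele of this gene, and the labels do not name the substrain used here. Levels were 78.2, 76.5, 58.8, 75.6 and 82.1 normalised CPM in aged libraries 1 to 5, against a lowest value of 36.6, a median of 74.2 and a highest value of 101 in young libraries. All aged libraries lay within the young range, and young libraries 6 and 7 were below every aged one. The log2 fold change was 0.12 ± 0.36 (SE, 95% interval −0.65 to 0.89, adjusted p = 0.999 by edgeR), and 0.21 without aged libraries 1, 3 and 4.

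Slc48a1, also named HRG1, carries heme out of the phagolysosome (chromosome 15, 97784365 to 97792692) and was at or under 2 counts in aged library 4 and young library 1. It had 0.925, 22.3, 14.96, 0.096 and 48.8 normalised CPM in aged libraries 1 to 5, the fourth from only 2 counts. Young library 1 had 0 counts, which allows up to 0.111 normalised CPM, while the other young libraries lay between 25.7 and 53.8. Only aged library 5 reached the range of those 6 young libraries. The log2 fold change was −0.92 ± 1.28 (SE, 95% interval −3.63 to 1.79, adjusted p = 0.999 by edgeR), and it was 0.088 without aged libraries 1, 3 and 4. It was −1.46 with limma voom, −1.77 with limma on log2(FPKM + 0.1) and −1.80 without aged library 5.

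Tfrc, the transferrin receptor that brings in iron bound to transferrin (chromosome 16, 32608896 to 32632794), was also uneven, but not in the same libraries as Slc48a1 throughout. It had 11.3, 70.0, 1.15, 0.335 and 36.2 normalised CPM in aged libraries 1 to 5, against a lowest value of 5.95, a median of 31.9 and a highest value of 63.8 in young libraries. Aged libraries 3 and 4, with 23 and 7 counts, lay below all young libraries, and aged library 2 lay above all of them. The log2 fold change was −0.58 ± 0.99 (SE, 95% interval −2.66 to 1.51, adjusted p = 0.999 by edgeR), and it was 0.59 without aged libraries 1, 3 and 4. It was −1.88 with limma voom, −1.93 with limma on log2(FPKM + 0.1), −1.77 with a replicate block and −1.53 without aged library 2. The ratio of Slc40a1 to Tfrc, export over import, was 3.66 to 733 in aged and 3.51 to 37.0 in young libraries (difference in mean log2 ratio 1.52, exact two-sided permutation p = 0.278, adjusted p = 0.278), with the highest aged values in libraries 3 and 4. That difference was 0.72 with a pseudocount of 5, 0.92 with FPKM, 0.37 without aged library 4 and −1.29 without aged libraries 1, 3 and 4.

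Slc11a2 encodes DMT1, which moves ferrous iron out of endosomes (chromosome 15, 100387898 to 100424209), and it was the only gene of the set at 0 counts in several libraries. It had 6.76, 0, 27.4, 35.5 and 19.1 normalised CPM in aged libraries 1 to 5, and 0, 35.4, 1.01, 3.65, 18.8, 0 and 7.90 in young libraries 1 to 7. The counts of 0 allow up to 0.101 normalised CPM in aged library 2, 0.111 in young library 1 and 0.103 in young library 6. The groups overlapped almost completely, and the log2 fold change was 0.90 ± 1.66 (SE, 95% interval −2.62 to 4.41, adjusted p = 0.999 by edgeR), and −0.029 without aged libraries 1, 3 and 4. It was 2.75 with a replicate block, 1.62 with limma voom and 1.72 without young library 2.

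**Figure D4:**
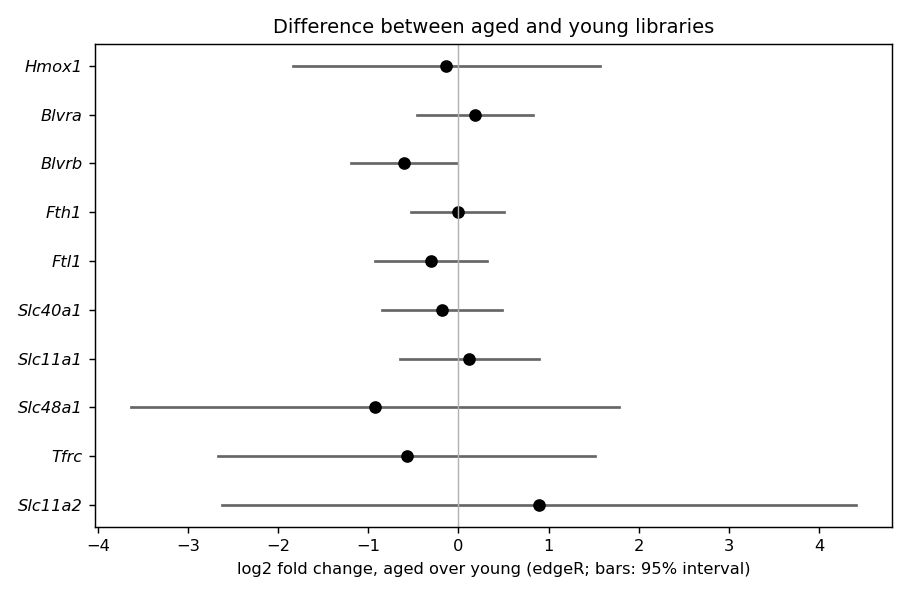
Log2 fold change of each gene, aged over young, from edgeR's quasi-likelihood fit to all 12 libraries, with bars for the 95% interval. The intervals of Fth1 (−0.53 to 0.51) and Slc11a2 (−2.62 to 4.41) are the narrowest and the widest, and that of Blvrb alone lies wholly below 0, before adjustment for the number of genes tested.

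Slc11a2 messages with and without the iron-responsive element differ in their 3′ ends and in length. In GENCODE M21 the protein-coding transcript that holds the element has 4415 bases, and the longest one without it has 3025. The length behind the deposited values can be read back from count, FPKM and library total. For Slc11a2 this length was 2270, 2296, 3090 and 2252 bases in aged libraries 1, 3, 4 and 5, and 2255, 2987, 2615, 3648 and 2259 bases in young libraries 2, 3, 4, 5 and 7. Aged library 4 and young libraries 3, 4 and 5 thus stood above the other 5 libraries, which lay between 2252 and 2296, and neither age group was of 1 kind. The values of young libraries 3 and 4 rest on 30 and 117 counts. The highest and lowest length differed 1.62-fold for Slc11a2 and by at most 1.07-fold for the other 9 genes. The sources used here do not give the transcripts behind the authors' estimates.

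Levels per transcript length spanned a wide range over the 10 genes. Mean FPKM over all 12 libraries was 16037 for Ftl1, 11334 for Fth1, 579 for Blvrb, 207 for Blvra, 95.4 for Slc40a1, 52.3 for Hmox1, 31.8 for Slc11a1, 11.3 for Slc48a1, 6.43 for Tfrc and 4.90 for Slc11a2. Fth1 lay above Blvrb without overlap of their ranges, and Blvra lay above Slc40a1 and Slc11a1 above Slc48a1 in 12 of 12 libraries. Ftl1 exceeded Fth1 in 3 of 5 aged and 7 of 7 young libraries, Blvrb exceeded Blvra in 4 of 5 aged and 7 of 7 young, and Hmox1 exceeded Slc11a1 in 3 of 5 aged and 7 of 7 young libraries. Slc40a1 exceeded Hmox1 in 3 of 5 aged and 6 of 7 young libraries. At the low end Slc48a1 exceeded Tfrc in 2 of 5 aged and 5 of 7 young libraries, and Tfrc exceeded Slc11a2 in 1 of 5 aged and 6 of 7 young libraries. The FPKM ranges over 12 libraries overlapped for every pair of neighbours other than Fth1 and Blvrb.

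**Figure D5:**
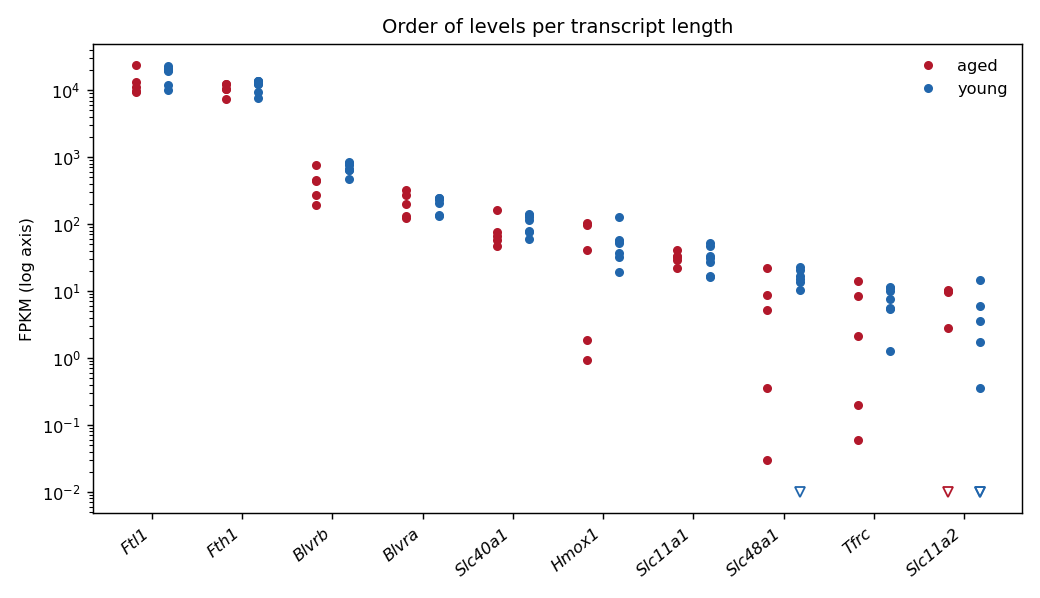
FPKM, the deposited level per transcript length, of the 10 genes in aged (red) and young (blue) libraries on a log axis, in order of the mean over 12 libraries. Open triangles at the bottom mark libraries listed at 0. The ferritin genes lie at or above 7355 in all libraries, and the 3 genes at the right fall below 1 in some libraries. Hmox1 also falls below 1 in aged library 1 (0.93).

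The genes also fell into a steady and an uneven set. The SD of log2(normalised CPM + 1) over the 12 libraries was between 0.442 and 0.593 for Fth1, Ftl1, Blvra, Blvrb, Slc40a1 and Slc11a1, lower than in most of the 9550 tested genes (percentiles from 4.92 to 11.9). It was 1.94 for Hmox1, 2.205 for Slc48a1, 1.89 for Tfrc and 2.07 for Slc11a2 (percentiles from 79.1 to 94.2). These percentiles were taken over tested genes of all levels. The 6 steady genes averaged at least 68.2 normalised CPM in each group, and Slc48a1, Tfrc and Slc11a2 at most 35.5. Hmox1 averaged 72.8 in aged and 79.8 in young libraries. The part of level in this split was not tested.

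The profiles most like each gene were taken among 4826 tested genes of at least 20 normalised CPM by Pearson's r over the 12 libraries, as a description without a test. Fth1 was closest to Slc25a5, the mitochondrial ADP/ATP carrier (r = 0.973, rho = 0.867), and Ifitm2, an interferon-induced membrane protein (r = 0.967, rho = 0.818). Ftl1 was closest to LOC100862446 (r = 0.967, rho = 0.951) and the Fc receptor gene Fcgr3 (r = 0.948, rho = 0.944). Blvrb was closest to Apoe, the lipid carrier apolipoprotein E (r = 0.958, rho = 0.853), and Commd10 (r = 0.930, rho = 0.916). Apoe averaged 16758 normalised CPM in the aged and 25703 in young libraries. It was not called, as 0 of the 9550 tested genes were called lower in aged libraries by edgeR. Slc40a1 was closest to the annexin gene Anxa4 (r = 0.952, rho = 0.944) and the RNA polymerase II subunit gene Polr2d (r = 0.881, rho = 0.923).

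Hmox1 was closest to Uba7, which activates the ubiquitin-like modifier ISG15 (r = 0.945, rho = 0.909), and Mettl23 (r = 0.923, rho = 0.657). Slc11a1 was closest to the integrin gene Itgam (r = 0.895, rho = 0.797) and Asxl1 (r = 0.888, rho = 0.699), and Blvra to Rdh14 (r = 0.855, rho = 0.881) and Eif1ax (r = 0.854, rho = 0.846). Tfrc was closest to Ptrh2 (r = 0.943, rho = 0.734) and Eif3j1 (r = 0.926, rho = 0.902), Slc48a1 to Tmem181a (r = 0.945, rho = 0.727) and Stxbp5 (r = 0.929, rho = 0.622), and Slc11a2 to Rffl (r = 0.862, rho = 0.768) and Malt1 (r = 0.823, rho = 0.747).

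A wider list of 57 genes covered the rest of heme and iron metabolism. Of these 54 were in the table and 43 were tested, and 0 passed in either direction by edgeR, DESeq2, voom or edgeR with legacy=FALSE, beside the 0.0105% of all tested genes called by edgeR. There were 22 positive and 21 negative log2 fold changes with a median of 0.01, and 2 genes, Cd163 and Bmpr2, had an unadjusted p under 0.05, both higher in aged libraries, beside 5.97% of all tested genes.

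Among genes of heme uptake and transport, 4 of 5 tested were positive (median 0.40). Cd163, the receptor for haemoglobin bound to haptoglobin, had 464, 488, 486, 383 and 562 normalised CPM in aged libraries 1 to 5, against a lowest value of 212, a median of 297 and a highest value of 403 in young libraries. Only aged library 4 lay within the young range. Its log2 fold change was 0.62 ± 0.21 (SE, unadjusted p = 0.00852, adjusted p = 0.448 by edgeR), and it lay between 0.51 and 0.75 under all 23 alternatives. Flvcr1, a heme exporter, was at 54.9 ± 59.8 in aged and 18.8 ± 9.62 normalised CPM in young libraries (SD, n = 5 and 7, adjusted p = 0.999 by edgeR), with aged libraries 2 and 4 below and the other 3 above all young libraries. Its log2 fold change was 1.55, and 0.73 without aged library 3 (148 normalised CPM) and −0.27 with limma voom.

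Heme synthesis had 3 positive and 5 negative members of 8 tested (median −0.70). Alas1, which starts the pathway, was at 17.4 ± 20.4 in aged and 37.1 ± 17.5 normalised CPM in young libraries (SD, n = 5 and 7), and Ppox, its penultimate enzyme, at 4.15 ± 7.75 and 17.7 ± 10.2 (both adjusted p = 0.999 by edgeR). Of 7 genes of heme-responsive transcription and its neighbours, 3 were positive. Hmox2, the constitutive heme oxygenase, was at 368 ± 137 in aged and 272 ± 48.9 normalised CPM in young libraries (adjusted p = 0.984 by edgeR). Spic, a transcription factor known from iron-recycling macrophages of the spleen, was at 65.4 ± 59.8 in aged and 38.9 ± 24.4 in young libraries (SD, n = 5 and 7, adjusted p = 0.999 by edgeR). Its log2 fold change was 0.75, and 0.065 without aged library 3, which held 163 normalised CPM.

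Iron sensing had 3 positive members of 5 (median 0.01). Fbxl5, which marks iron regulatory protein for decay, was at 74.6 ± 81.7 in aged and 93.4 ± 42.7 normalised CPM in young libraries. Its log2 fold change was −0.32, with −1.21 without aged library 3 (210.6 normalised CPM), −0.025 without aged library 4 (3 counts) and −1.75 with limma voom. The aged mean of Epas1, at 7.07 ± 14.7 against 3.76 ± 5.32 in young libraries, rested on library 1 alone (33.3, the other aged libraries at most 1.35). Of 3 genes of ferritin loading and turnover, Ncoa4, the receptor that takes ferritin to the lysosome, was at 369.9 ± 142 in aged and 311 ± 68.5 normalised CPM in young libraries, and the iron chaperone Pcbp1 at 72.2 ± 43.1 and 88.1 ± 40.2. Adjusted p was 0.999 for these 4 genes by edgeR.

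In the transferrin cycle 3 of 9 genes were tested. Trf, transferrin itself, which oligodendrocytes and choroid plexus also make, was at 732, 1878, 721, 683 and 617 normalised CPM in aged libraries 1 to 5, against 814 to 1384 in young libraries. Every aged library except library 2 lay below the whole young range. The log2 fold change of Trf was −0.33 ± 0.27 (SE, adjusted p = 0.999 by edgeR), −0.76 without aged library 2 (adjusted p = 0.0801) and 0.11 without aged libraries 1, 3 and 4. Mcoln1, an iron-permeable channel of the lysosome, was at 18.6 ± 16.8 in aged and 15.2 ± 15.1 in young libraries. The summed oligodendrocyte markers were at 27.2 to 84.3 normalised CPM in the aged and 29.0 to 85.0 in young libraries.

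In the hepcidin axis 1 of 4 tested genes was positive. This was Bmpr2, a receptor for bone morphogenetic proteins, with 310.1, 143, 210.4, 243 and 146 normalised CPM in aged libraries 1 to 5, against a lowest value of 62.2, a median of 102 and a highest value of 215 in young libraries. Aged libraries 1 and 4 lay above the young range and the other 3 within it. Its log2 fold change was 0.89 ± 0.32 (SE, unadjusted p = 0.013, adjusted p = 0.512 by edgeR), and it was positive under all 23 alternatives (0.34 to 1.201). Smad4, a signal transducer of the same pathway, was at 18.4 ± 15.3 in aged and 41.2 ± 26.0 normalised CPM in young libraries. Mitochondrial iron genes were divided 4 to 4, with the iron-sulfur scaffold gene Iscu at 129 ± 60.2 in aged and 177 ± 79.8 in young libraries (SD, n = 5 and 7). Smad4, Iscu and Mcoln1 each had an adjusted p of 0.999 by edgeR.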

How the data were processed

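The authors deposited 1 table with estimated counts and normalised values per gene for 12 libraries. Per the submitters' processing notes, the tools were RSEM 1.2.12, HISAT2 2.0.4, DESeq2 1.4.5 and Bowtie2 2.2.5 on GRCm38 (mm10), with no role named. The sources used here do not name the annotation. In each library 88.2% to 90.6% of the authors' estimated counts were whole (within 1e-06), and every count was rounded to a whole number for testing. The normalised values deposited by the authors name no unit and were read as FPKM because count over value, scaled by library total, gave a nearly constant length for 9 of the 10 genes. SMART-seq2 with Nextera XT, per the labels' protocols, marks no strand and carries no molecular identifiers, so amplified copies count as reads and limits from 3 counts cover counting error only.

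Aged and young libraries were compared with edgeR 4.0.16 (quasi-likelihood, legacy=TRUE, robust, TMM factors, filterByExpr) in R 4.3.3, with Benjamini-Hochberg adjustment over 9550 genes. Standard errors came from the F statistic. DESeq2 1.42.0 and limma 3.58.1 were alternatives. Ratios (pseudocount 0.5) and correlations (100000 resamples, exact within young libraries) were tested by permutation with scipy 1.17.1. The fit was tested on simulated data. Gene coordinates are 1-based, from RefSeq (GRCm38.p6), which matched 17244 of 17358 identifiers. The genes, the lists and the set of libraries left out together were chosen with earlier results of these data known. All 10 genes were named, with the 2 of smallest p in each role list and the 2 most similar profiles per gene, except that 1 gene of the mitochondrial list and 1 erythroid marker are not reported here.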

Additional observations from a re-analysis of the deposited data

Results flagged for a closer look

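Of the 60 groups of values checked, 6 held a library whose gap to its nearest neighbour was large for the range of its group (Dixon's 95% criterion), where chance gives about 5%. Hmox1 was at 188 normalised CPM in young library 3, with the next young library at 90.3. Slc40a1 was at 612 in aged library 4, with the next at 257. Slc11a1 was at 58.8 in aged library 3, below the next at 75.6. Among the wider list, Ppox was at 17.9 in aged library 2 (next 1.48), Epas1 at 33.3 in aged library 1 (next 1.35) and Trf at 1878 in aged library 2 (next 732).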

How the results depend on the processing

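No alternative called any of the 10 genes or of the 43 tested genes of the wider list. Over all genes, where the first fit called 1, upper quartile factors called 4, no low-count filter 13, edgeR with legacy=FALSE 38, DESeq2 121, limma on log2(FPKM + 1) 6 and on log2(FPKM + 0.1) 3, and leaving out aged libraries 1, 3 and 4 gave 0. Leaving out single libraries gave 0 to 75 (the 75 without aged library 2). The cause was not tested.

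Without aged libraries 1, 3 and 4, which leaves 2 aged libraries, signs turned for Hmox1 (0.84), Blvra (−0.0067), Slc48a1 (0.088), Tfrc (0.59), Slc11a2 (−0.029), Trf (0.11) and Epas1 (−3.44), and for the ratios Fth1 over Ftl1 (−0.087) and Slc40a1 over Tfrc (−1.29). Signs also turned with voom for Flvcr1 (−0.27), Epas1 (−0.41) and Mcoln1 (−0.66), and with FPKM for Blvra (−0.035 and −0.036 at the 2 pseudocounts) and Mcoln1 (−0.39). Leaving out single libraries gave ranges across 0 for Hmox1 (−0.57 to 0.24), Blvra (−0.086 to 0.32), Fth1 (−0.13 to 0.12), Epas1 (−2.91 to 1.81) and Mcoln1 (−0.20 to 0.86). The ratio differences ranged from 0.19 to 0.46 for Fth1 over Ftl1, −0.99 to −0.50 for Blvrb over Blvra and 0.37 to 2.28 for Slc40a1 over Tfrc. The number of correlated pairs was 0 or 1. Correlations that crossed 0 were Hmox1 with Blvra (−0.034 to 0.25), Slc11a1 with Slc40a1 (−0.091 to 0.27) and Tfrc with Slc40a1 (−0.46 to 0.39, 0.022 with CPM by library total and 0.067 with FPKM).

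Replicate numbers paired no libraries (correlations of deviations from −0.04 to 0.094). A replicate block called 1 gene, outside the 10 genes and the wider list, and turned the signs of Fth1 (0.11), Slc11a1 (−0.12) and Mcoln1 (−0.19).

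Libraries under 3 counts of Slc48a1 or Slc11a2 give only an upper limit for that gene.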
